A study of Homo sapiens with 2 samples.

Results

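Lysosomal enzymes and membrane proteins were followed in the HMC1 cell line as a set of 43 genes. The genes were chosen by name, with earlier results of these data known. HMC1 is a human line established from mast cell leukaemia. Cells of the line had been separated by flow sorting for surface CD2, an adhesion receptor known from T cells, into a CD2-positive and a CD2-negative subclone. RNA of each subclone was hybridised to 1 Affymetrix U133 Plus 2.0 array, so each group held 1 sample, each group stands for 1 subclone, and no other treatment or genotype difference is given. The comparison addresses how gene expression differs between neoplastic mast cells with and without this receptor. Of the 43 members, 42 had at least 1 probe set annotated to that gene alone, out of 19775 genes with such a probe set. GLB1, the beta-galactosidase gene, was the exception, since its probe set carries 2 gene symbols, and it is given no value. A gene with several probe sets is given by the brightest one, taken as the mean log2 of the arrays, and every difference is the log2 value of the CD2-positive minus that of the CD2-negative array.

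Lysosomes are acid compartments in which proteases, glycosidases, sulfatases and lipid hydrolases take apart material brought in by endocytosis and autophagy. Most soluble lysosomal enzymes are tagged with mannose 6-phosphate in the Golgi and sorted by receptors, while membrane proteins line the compartment, acidify it and export the products. In mast cells the secretory granules are related to lysosomes and carry several of these hydrolases, among them the beta-hexosaminidase that is commonly measured to follow degranulation. TFEB, TFE3 and MITF are related transcription factors that bind E-box elements in promoters of lysosomal genes, and MITF is also a main regulator of mast cell genes.

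Both arrays reported 54675 probe sets with a median intensity of 4, and control probe sets for Bacillus RNA, absent from human cells, read 1 to 4. Genes that reached an intensity of 64 (log2 of 6) on at least 1 array are called compared below, and 3564 genes and 20 members did so. With 1 array per group there is no error between replicates, no test was possible, and precision is limited by the number of arrays. The only spread available lies between probe sets of 1 gene on the same arrays, with a standard deviation of 0.13 in the log2 difference of 1 probe set. It covers probe behaviour and no biological variation. The sort marker CD2 read 219 in CD2-positive and 13 in CD2-negative cells. For ACTB the 3′ probe set over the 5′ probe set, a sign of RNA integrity, gave a ratio of 1.38 on the CD2-positive and of 1.59 on the CD2-negative array, and the part of this gap in the values below was not tested.

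Lysosomal members mostly read slightly higher in CD2-positive than in CD2-negative cells. Of the 20 compared members 18 had a positive and 2 a negative difference, where 41.9% of all compared genes had a positive one. Differences smaller than the probe-set standard deviation of 0.13 were those of CTSS (0.02), LIPA (0.03), CTSL (0.04), LAMP1 (0.05), PSAP (0.11) and LAPTM5 (-0.02). The median difference of the members was 0.31, beside -0.05 for all compared genes. CTSD, CTSA and NEU1 were at least 1.5-fold higher, which is 15% of the compared members beside 4.24% of all compared genes. That share rests in part on CTSD, which reached 64 on the CD2-positive array alone, and on NEU1, at 1.51-fold. With a log2 of 7 in place of 6 CTSD dropped out, and 2 of 15 members, CTSA and NEU1, were at least 1.5-fold higher. No compared member was at least 1.5-fold lower, beside 3.76% of all compared genes. No compared member reached a 2-fold difference in either direction, beside 1.21% higher and 0.758% lower among all compared genes. The differences are small: the middle 95% of all compared genes lay between -0.68 and 0.70, and 18 of the 20 members lay inside that range. The middle 50% of all compared genes lay between -0.23 and 0.14, and 12 of the 20 members lay above and none below that narrower range. In RNA of whole cultures, fewer cells with a transcript and less of it per cell cannot be told apart.

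**Figure D1:**
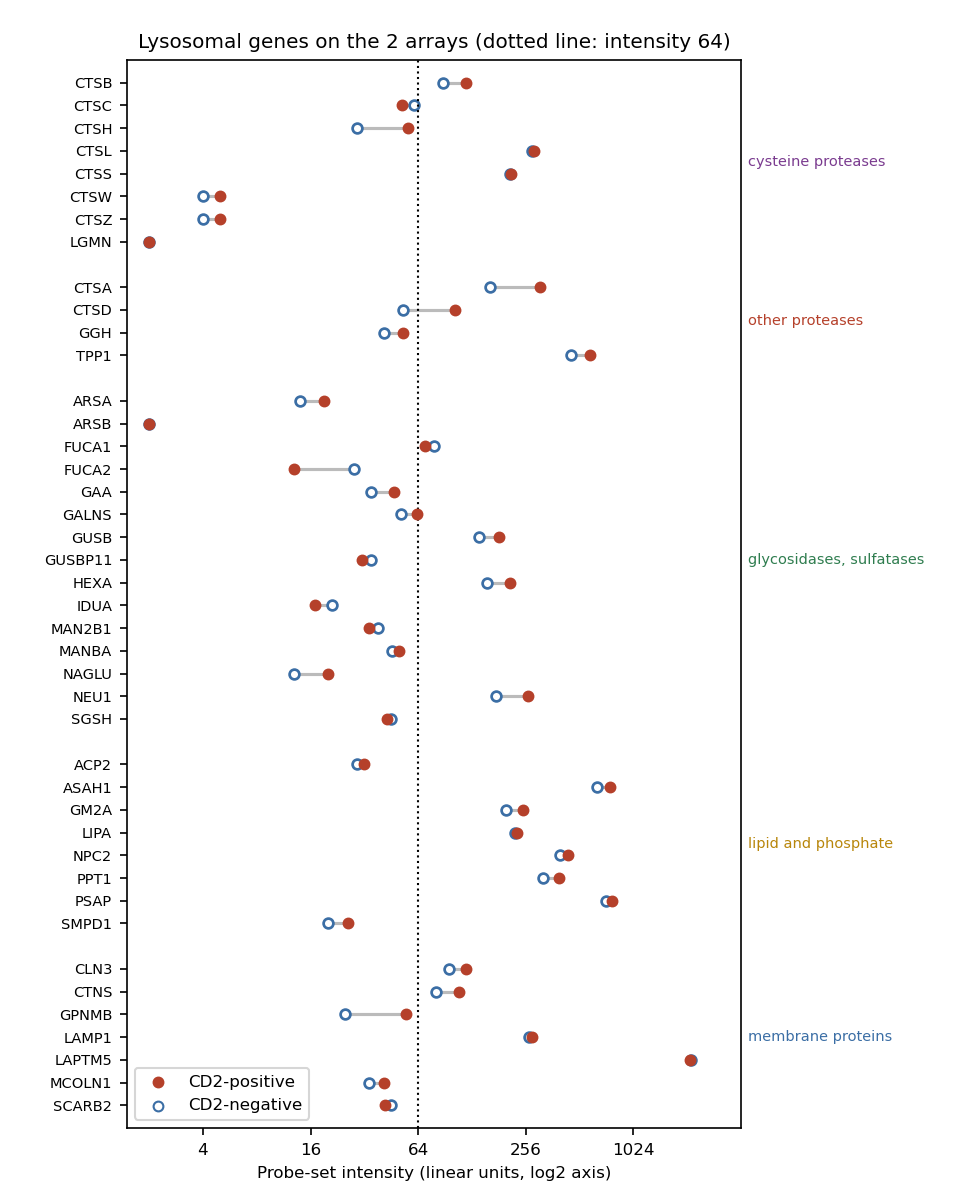
Intensity of the 42 measured lysosomal genes on each array, on a log axis, grouped by role; filled points are the CD2-positive and open points the CD2-negative subclone, with 1 array each and no error bars. The dotted line marks the intensity of 64; CTSD, CTSA, CTSH, GPNMB and FUCA2 have the widest gaps, and of these FUCA2 alone reads lower in the CD2-positive subclone.

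CTSD, CTSA and NEU1 stood farthest from 0 among the compared members. CTSD encodes cathepsin D, the main aspartic protease of lysosomes, and read 103 in CD2-positive and 53 in CD2-negative cells (1.94-fold, log2 difference 0.96). It reached 64 in the CD2-positive sample alone, and its 18 nearest compared genes on chromosome 11 had a median difference of 0.20. CTSA encodes cathepsin A, the serine carboxypeptidase also called protective protein, and read 308 in CD2-positive and 162 in CD2-negative cells (1.90-fold, 0.93). NEU1 encodes the lysosomal sialidase and read 265 in CD2-positive and 175 in CD2-negative cells (1.51-fold, 0.60). NEU1 therefore sits at the edge of the 1.5-fold rule. Cathepsin A is known to hold the sialidase and the beta-galactosidase encoded by GLB1 in a multienzyme complex and to protect them from breakdown. The 20 nearest compared genes had a median of 0.01 around CTSA on chromosome 20 and of 0.05 around NEU1 on chromosome 6. Each of the 3 genes was measured by a single probe set, so no second probe set bears on these values.

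The promoters of these 3 genes are shown because all of them hold the E-box CACGTG, the core of the element bound by TFEB and its relatives, and that of LAMP1 is set beside them as one with many copies and hardly any difference between the subclones. The stretches are RefSeq sequence of build GRCh38.p14, 5′ to 3′ on the gene's strand, and end at the base before the annotated start of the gene. Capitals mark CACGTG. They span chr20:45891209-45891334 (plus strand) for CTSA, chr11:1763928-1764127 (minus strand) for CTSD, chr6:31862822-31863021 (minus strand) for NEU1 and chr13:113297039-113297238 (plus strand) for LAMP1. The CTSA stretch is shorter, 126 against 200 bases, because the neighbouring gene NEURL2 begins there.
CTSA: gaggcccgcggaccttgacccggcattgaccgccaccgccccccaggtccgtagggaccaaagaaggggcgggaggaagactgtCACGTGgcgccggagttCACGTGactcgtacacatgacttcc
CTSD: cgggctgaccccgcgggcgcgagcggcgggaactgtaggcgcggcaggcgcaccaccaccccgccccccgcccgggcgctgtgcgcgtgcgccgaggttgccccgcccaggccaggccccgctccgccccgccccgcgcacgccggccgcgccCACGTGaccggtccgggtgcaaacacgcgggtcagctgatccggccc
NEU1: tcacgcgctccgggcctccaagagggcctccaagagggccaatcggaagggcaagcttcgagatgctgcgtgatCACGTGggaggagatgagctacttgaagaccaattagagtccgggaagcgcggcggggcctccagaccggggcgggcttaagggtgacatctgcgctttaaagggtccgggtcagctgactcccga
LAMP1: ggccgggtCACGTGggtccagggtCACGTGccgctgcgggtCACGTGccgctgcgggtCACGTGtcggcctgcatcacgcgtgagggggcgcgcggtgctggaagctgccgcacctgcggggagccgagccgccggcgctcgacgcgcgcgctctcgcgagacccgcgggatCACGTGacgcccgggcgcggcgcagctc

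CTSA holds the E-box at 42 and 25 bases before its start, CTSD at 47 and NEU1 at 126, each counted to the first base of the motif. The LAMP1 stretch holds 5 copies, the nearest at 28 bases before the start. Promoter windows of 300 bases, 250 before and 50 after each start, were on hand for 30 of the 43 members. CACGTG, which reads the same on both strands, occurred in 9 of the 30 (30%), beside 8.77% of all 27305 genes with a window and 14.4% of the 3047 compared genes with one. The longer palindrome TCACGTGA, which contains CACGTG, occurred in 6 of the 30, in 1.18% of all genes and in 2.66% of the compared genes. The same letters with a further G before and C after them occurred in 3 of the 30, in 0.421% of all genes and in 1.05% of the compared genes. Those 3 members, namely GAA, GALNS and MCOLN1, lay below the intensity of 64. Among the 15 compared members with a window, the 5 with CACGTG had a median difference of 0.60 and ranged from 0.05 (LAMP1) to 0.96 (CTSD), with CLN3 at 0.31. The 10 without it had a median of 0.22 and ranged from -0.17 to 0.43, so the ranges overlap. Over all compared genes the medians were -0.01 with and -0.06 without CACGTG. The longer TCACGTGA, which CTSD and NEU1 lack, was held by 3 of the 15, with a median of 0.31. Compared members without it also had a median of 0.31, and over all compared genes the medians were -0.04 with and -0.05 without it. These matches describe letters in a window and do not show binding.

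The remaining compared proteases read equal to or slightly higher in the CD2-positive than in the CD2-negative subclone. TPP1, which encodes a tripeptidyl peptidase and is mutated in a childhood form of neuronal ceroid lipofuscinosis, read 589 in CD2-positive and 458 in CD2-negative cells (1.29-fold, 0.36). Its 4 probe sets above 64 gave differences from 0.33 to 0.50, all positive. GGH, which trims glutamate residues from folates, read 53 and 41 in CD2-positive and CD2-negative cells and lay below 64 on both arrays. Among the cysteine proteases CTSB, which encodes the widely expressed cathepsin B, read 119 in CD2-positive and 88 in CD2-negative cells (1.35-fold, 0.44), with 0.47 for its other probe set above 64. CTSL, encoding the endopeptidase cathepsin L, read 285 and 278 (0.04), and CTSS, whose product cleaves the invariant chain in antigen-presenting cells, read 213 and 210 (0.02), in CD2-positive and CD2-negative cells. CTSS was the compared cysteine protease nearest to 0, with 0.07 for its other probe set above 64. The gene's remaining probe set, below 64, read 35 in CD2-positive and 44 in CD2-negative cells, and the mean of all its probe sets turned to -0.08. The 20 compared genes nearest to CTSS on chromosome 1 had a median of -0.29.

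The other 5 cysteine protease genes stayed below 64 in both subclones. CTSH, which encodes the aminopeptidase cathepsin H, read 56 in CD2-positive and 29 in CD2-negative cells (1.93-fold, 0.95) by its single probe set. CTSC, whose product activates granule serine proteases of mast cells and cytotoxic cells, read 52 in CD2-positive and 61 in CD2-negative cells (-0.23). The carboxypeptidase gene CTSZ and CTSW, a gene known from cytotoxic lymphocytes, both read 5 in CD2-positive and 4 in CD2-negative cells, next to the Bacillus level. LGMN, the gene of the asparaginyl endopeptidase legumain, read 2 in each subclone. Cystatins inhibit cysteine proteases, and 3 of their 5 genes were compared. CSTB read 938 in CD2-positive and 710 in CD2-negative cells (0.40), CST3 read 213 and 156 (0.45) and CST7 read 456 and 454 (0.01), in that order. None of the cystatin genes reached 1.5-fold.

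Of the 16 glycosidase and sulfatase genes 4 were compared. Besides NEU1 these were HEXA, GUSB and FUCA1. HEXA, which encodes the alpha subunit of beta-hexosaminidase, read 208 in CD2-positive and 155 in CD2-negative cells (1.34-fold, 0.42). GUSB, the beta-glucuronidase gene, read 181 in CD2-positive and 140 in CD2-negative cells (1.29-fold, 0.37). The pseudogene GUSBP11 shares sequence with GUSB, so signals of the pair are uncertain, and it read 31 in CD2-positive and 35 in CD2-negative cells. FUCA1, encoding the lysosomal alpha-fucosidase, read 70 in CD2-positive and 79 in CD2-negative cells (-0.17), a difference that turns to 0.01 when the arrays are centred on the hybridisation controls. It was the compared member of this role nearest to 0, and its other probe set read 2 in CD2-positive and 3 in CD2-negative cells.

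Below 64, the enzymes of glycogen, glycosaminoglycan and glycoprotein breakdown went both ways. FUCA2, which encodes a secreted fucosidase, read 13 in CD2-positive and 28 in CD2-negative cells (2.15-fold lower, -1.11), the most negative difference of the 42 measured members. NAGLU, for a heparan sulfate-degrading enzyme, read 20 in CD2-positive and 13 in CD2-negative cells (1.54-fold higher, 0.62), and its other probe set read 2 on both arrays. The acid alpha-glucosidase gene GAA, mutated in Pompe disease, read 47 in CD2-positive and 35 in CD2-negative cells (0.43). Of the sulfatase genes GALNS read 63 and 51, ARSA read 19 and 14, and SGSH read 43 and 45, in CD2-positive and CD2-negative cells. IDUA, the alpha-iduronidase gene, read 17 in CD2-positive and 21 in CD2-negative cells (-0.30). The mannosidase genes MAN2B1 and MANBA read 34 and 50 in CD2-positive cells, against 38 and 46 in CD2-negative cells. ARSB read 2 in each by all 4 probe sets.

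All 6 compared genes of lipid hydrolases and their cofactors were positive, with a median of 0.18 and none above 0.32. GM2A, which encodes the activator protein that presents ganglioside to beta-hexosaminidase, read 247 in CD2-positive and 198 in CD2-negative cells (0.32), with 0.34 for its other probe set above 64. PPT1, for a thioesterase that removes fatty acids from proteins, read 394 in CD2-positive and 319 in CD2-negative cells (0.30). ASAH1, the acid ceramidase gene, read 753 in CD2-positive and 642 in CD2-negative cells (0.23), and its 4 probe sets above 64 ranged from 0.22 to 0.37. Smaller differences were measured for NPC2, a cholesterol-binding protein gene, at 439 and 399 (0.14), and for PSAP, the precursor of the saposins, at 774 and 719 (0.11), in CD2-positive and CD2-negative cells. LIPA, which encodes the acid lipase, was nearest to 0 at 229 in CD2-positive and 224 in CD2-negative cells (0.03), and its other probe set read 2 on both arrays. Below 64, the acid sphingomyelinase gene SMPD1 read 26 and 20, and the acid phosphatase gene ACP2 read 32 and 29, in CD2-positive and CD2-negative cells.

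Of the 4 compared membrane protein genes 3 were positive and 1 negative, with a median of 0.18. CTNS, which encodes the cystine exporter, read 109 in CD2-positive and 81 in CD2-negative cells (1.35-fold, 0.43), and its other probe set above 64 gave 0.55. CLN3, the gene of juvenile neuronal ceroid lipofuscinosis, read 118 in CD2-positive and 95 in CD2-negative cells (1.24-fold, 0.31). LAMP1, the abundant glycoprotein of the lysosomal membrane, read 277 in CD2-positive and 268 in CD2-negative cells (0.05), with 0.03 for its other probe set above 64. LAPTM5, a lysosomal membrane protein of blood cells, was nearest to 0 at 2130 in CD2-positive and 2162 in CD2-negative cells. Its 2 probe sets gave -0.02 each, a value that turns positive when the arrays are centred on the hybridisation controls (0.16) or corrected for level (0.01). GPNMB, a glycoprotein gene controlled by MITF in melanocytes and osteoclasts, read 55 in CD2-positive and 25 in CD2-negative cells (2.20-fold, 1.14), the most positive difference of the measured members. It stayed below 64, and its other probe set read 2 on both arrays. The cation channel gene MCOLN1 read 41 and 34, and SCARB2, whose product carries glucocerebrosidase to lysosomes, read 42 and 45, in CD2-positive and CD2-negative cells.

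**Figure D2:**
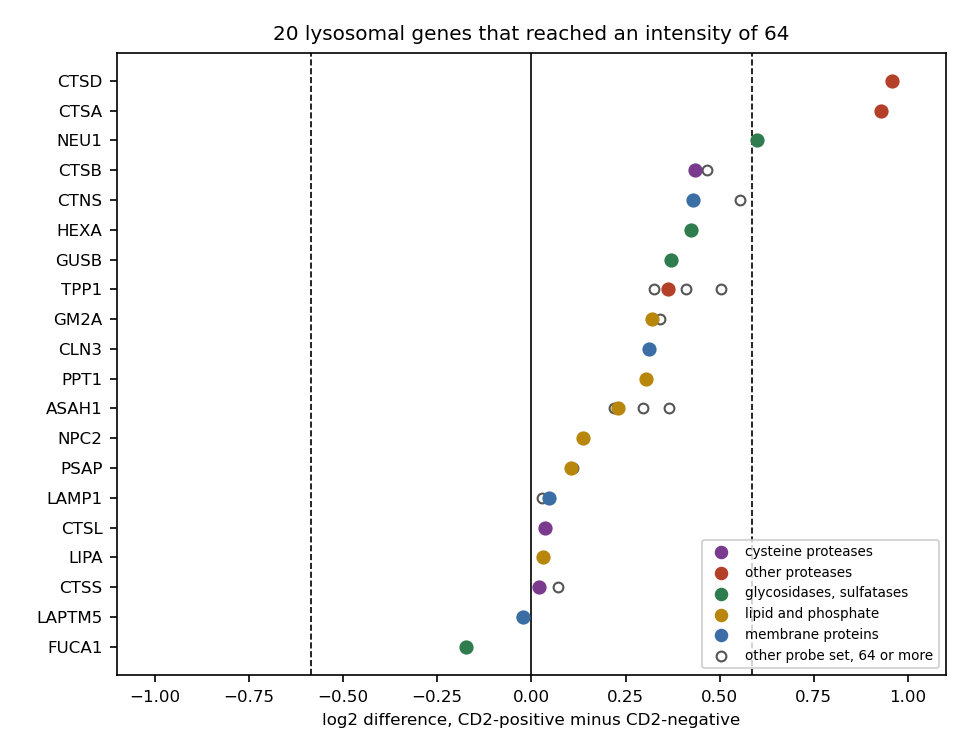
The log2 difference, CD2-positive minus CD2-negative, of the 20 compared lysosomal genes, coloured by role; open circles are further probe sets of the same gene that reached 64, and dashed lines mark 1.5-fold. CTSD, CTSA and NEU1 lie past the right line, none lies past the left one, and the probe sets of a gene lie on 1 side of 0.

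Probe sets of 1 gene agreed in sign wherever more than 1 reached 64, which was so for 9 of the 20 compared members. Over the 22 measured members below 64, 13 were positive, 7 negative and 2 equal. For 18 of them the higher array read from 16 to under 64, a range where 1 unit of rounding weighs more. Of these 18, 11 were positive, beside 42.7% of the 4618 genes in that range. CTSH, GPNMB and NAGLU were at least 1.5-fold higher, beside 4.55% of those genes, and FUCA2 was at least 1.5-fold lower, beside 4.94%. The median of the 18 was 0.21, beside 0.00 over all genes of that range. Of the negative ones, SGSH, MAN2B1, SCARB2 and GUSBP11 turn positive when centred on the hybridisation controls, at 0.12, 0.02, 0.08 and 0.01 in that order. Level and difference are shown together in the plot of difference by level.

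**Figure D3:**
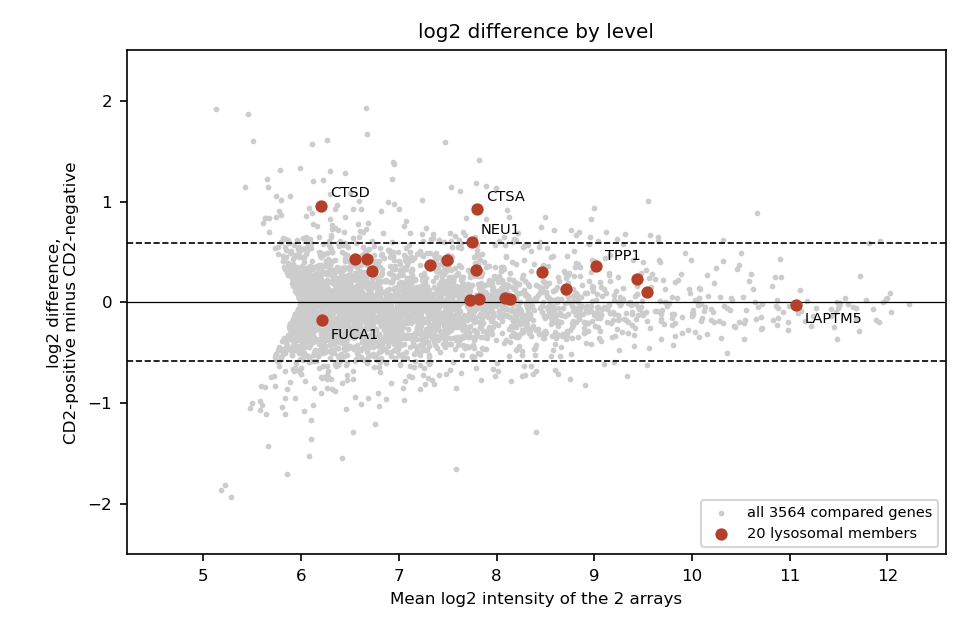
The log2 difference, CD2-positive minus CD2-negative, against the mean log2 intensity of both arrays for all compared genes (grey) and the 20 lysosomal members (red); dashed lines mark 1.5-fold, and 10 grey genes lie outside the plotted range of 2.5. Most members lie between 0 and the upper dashed line. CTSD, past that line, and FUCA1, below 0, lie at a low level and LAPTM5 at a high one.

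The compared genes were divided by mean level into 3 classes of about equal size, and 2 members fell in the lowest, 4 in the middle and 14 in the highest class. Their medians were 0.39, 0.40 and 0.18 in that order, beside -0.04, -0.05 and -0.03 for all compared genes of the same class. In each class the members' median was the higher one, but the 2 members of the lowest class, CTSD (0.96) and FUCA1 (-0.17), differ in sign. The 18 probe sets of the hybridisation controls had a median difference of -0.18, and each of them was negative. Centring on them moves the median of all compared genes from -0.05 to 0.14 and that of the members from 0.31 to 0.49. The gap between these medians stays at 0.35 by construction, because centring shifts every gene by the same amount. The same step changes the share of all compared genes at least 1.5-fold higher from 4.24% to 8.78% and at least 1.5-fold lower from 3.76% to 1.63%.

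Further genes of the lysosomal system, taken from 7 other lists, had a smaller median difference. Of their 151 measured genes 62 were compared, with 39 positive (62.9%), 21 negative and 2 equal, and their median was 0.06. Among all compared genes 41.9% were positive. At least 1.5-fold higher were 4 (6.45%), beside 4.24% of all compared genes, and none was at least 1.5-fold lower, beside 3.76%. GALC, which encodes the enzyme that degrades galactosylceramide, read 380 in CD2-positive and 201 in CD2-negative cells (1.89-fold, 0.92), and its 2 probe sets above 64 gave 0.90 and 0.92. RNASET2, a lysosomal ribonuclease gene, read 495 in CD2-positive and 301 in CD2-negative cells (1.64-fold, 0.72), and its other probe set above 64 gave 0.51, short of 1.5-fold. The other 4 compared enzymes of that list, GLA (-0.12), IDS (-0.53), PRCP (-0.16) and DNASE2 (0.06), were not past 1.5-fold by the brightest probe set. GLA and IDS lie on chromosome X, where their 20 nearest compared genes had medians of -0.47 and -0.57. The part of this position was not tested. For IDS the 6 probe sets above 64 ranged from -0.80 to -0.17. The list's median was -0.03, which turns to 0.02 when corrected for level and to 0.15 with the hybridisation controls as the centre. GNPTAB, which encodes the phosphotransferase subunits that start the mannose 6-phosphate tag, read 365 in CD2-positive and 238 in CD2-negative cells (1.53-fold, 0.62), while the 11 compared genes of tagging and sorting had a median of 0.07.

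The proton pump that acidifies lysosomes had 15 compared genes, with a median of 0.12 and none past 1.5-fold. Of the 15, 11 were positive (73.3%), beside 41.9% of all compared genes. TCIRG1, a pump subunit gene, was farthest from 0 at 81 in CD2-positive and 63 in CD2-negative cells (0.36). By the brightest probe set, none of the 11 compared further membrane proteins passed 1.5-fold. The metal transporter gene SLC11A2 was then farthest from 0 at 95 in CD2-positive and 64 in CD2-negative cells (0.57), with 0.50 for its other probe set above 64. LAMP2, on chromosome X, had -0.52, and its 3 probe sets above 64 ranged from -0.75 to -0.52. The 5 compared genes of tethering and lysosome-related organelles had a median of -0.14, which turns to 0.04 when centred on the hybridisation controls, with BLOC1S2 at 376 in CD2-positive and 474 in CD2-negative cells (-0.33). Of the transcription factors, MITF read 276 in CD2-positive and 154 in CD2-negative cells (1.79-fold, 0.84). TFE3 read 88 in CD2-positive and 106 in CD2-negative cells (-0.27), and TFEB lay below 64 at 13 and 12. MITF, with 0.85 for its other probe set above 64, was the only gene of its list of factors and nutrient sensors past 1.5-fold, and the list's median was 0.00.

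**Figure D4:**
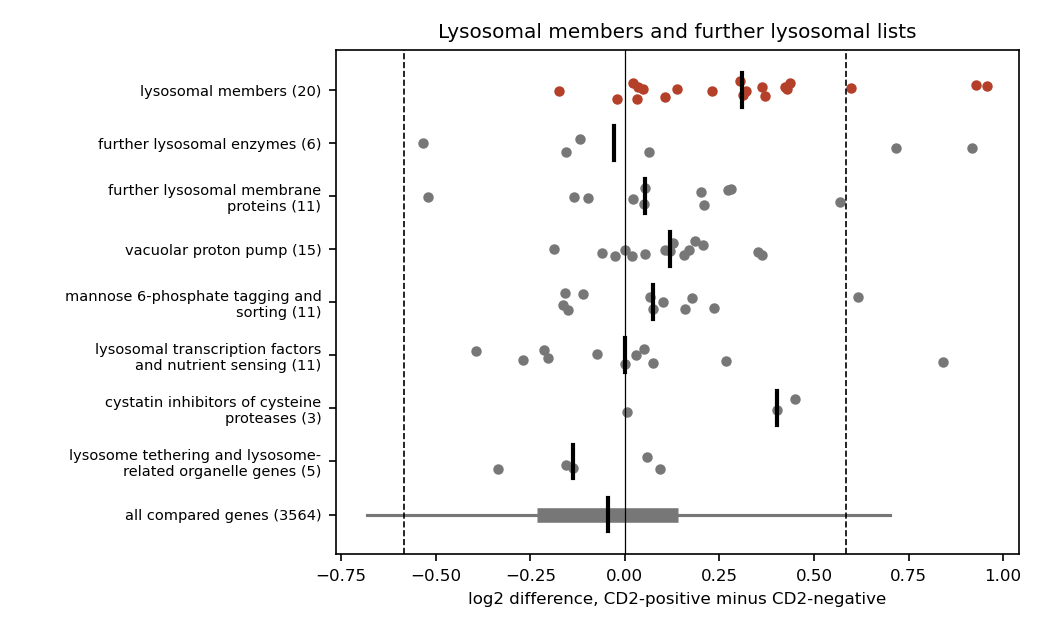
The log2 difference, CD2-positive minus CD2-negative, of the compared lysosomal members, of 7 further lists of the lysosomal system, with the number of compared genes in brackets, and of all compared genes (middle 50% as a thick and middle 95% as a thin bar). Black ticks are medians and dashed lines mark 1.5-fold; the members' median of 0.31 lies to the right of that of all compared genes at -0.05, and the list of 3 cystatins has a higher one at 0.40.

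Compared mast cell marker genes also had positive differences, from 0.02 for SRGN to 2.56 for CPA3. Of the 10 mast cell markers 9 were measured and 8 compared. All 8 were positive, beside 41.9% of all compared genes, with a median of 0.42. At least 1.5-fold higher were 3 of them (37.5%), beside 4.24% of all compared genes. CPA3, at 1220 in CD2-positive and 207 in CD2-negative cells, was the farthest from 0. SRGN, whose other probe set gave -0.04, and KIT (0.05) lay within the probe-set standard deviation of 0.13. The markers' summed intensity was 11902 on the CD2-positive and 8406 on the CD2-negative array, with TPSAB1 as the largest part at 4806 and 3142. That of the 42 lysosomal members was 8519 and 7527. KIT, the receptor for stem cell factor, read 1373 in CD2-positive and 1328 in CD2-negative cells. The part of the mast cell markers in the lysosomal differences was not tested. Of the 12 macrophage and monocyte markers 11 read 4 or less on both arrays, among them CD14, CD163, CSF1R and MARCO. The list summed to 70 on the CD2-positive and 68 on the CD2-negative array, most of it ITGAM at 41 and 38. Of 11 measured T and NK cell markers 7 read 4 or less on both arrays. The sum of that list, 1096 on the CD2-positive and 1118 on the CD2-negative array, was nearly all PRF1, the perforin gene, at 1060 and 1081.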

How the data were processed

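RNA of 1 CD2-positive and 1 CD2-negative HMC1 subclone was measured on 1 array each. The deposited table holds 1 linear intensity per probe set. Per the submitters' processing notes, the authors used RMA and Affymetrix Expression Console 1.1. The linear scale and the rounding to whole numbers were seen in the values; both these steps and the background model, on which the sources used here say nothing, bear most on low values. Quantile normalisation, a step of RMA, removes differences in total signal.

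From these, log2 values and differences were computed with Python 3.11.15, pandas 2.3.3 and numpy 2.4.6. Of 54675 probe sets, 41097 carried 1 gene symbol, 1801 several and 11777 were unnamed; the last 2 kinds were left out. Symbols were updated through RefSeq gene identifiers, found for 41043 probe sets. Neighbours are the 10 nearest compared genes on each side in RefSeq order, fewer near a chromosome end. The array annotation names no build, and RefSeq GRCh38.p14 was used for neighbours and promoter windows. Size rules were 1.5-fold and 2-fold, without a test. The calculation was tested on simulated arrays.

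Members and lists were chosen with earlier results of these data known. All members are named. Of each further list, members past 1.5-fold (at most 4) or else the one farthest from 0 are named. CSTB, CST7, ITGAM, PRF1, CPA3 and the macrophage markers named were added after their values were seen. So were TPSAB1, SRGN, PRCP, DNASE2 and the X-linked genes GLA, IDS and LAMP2. Alternatives were other floors (log2 of 5, 7 or none), size rules (a log2 difference of 0.32, and 2-fold), averaging a gene's probe sets, probe sets without _s, _x or _a in the identifier, 1 sign over probe sets, 2 centrings and a lowess with a span of 0.3 (statsmodels 0.14.6).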

Additional observations from a re-analysis of the deposited data

How the results depend on the processing

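No paired analysis was possible because each group holds 1 array. CTSD, CTSA and NEU1 were also the 3 members at least 1.5-fold higher with lowess, beside 5.39% of all compared genes. They were the same 3 when probe sets were averaged, with plain identifiers, with 1 sign over probe sets and when centred on all probe sets. Those settings could not move the 3 genes, which have a single probe set with a plain identifier each. The median difference of all probe sets is 0, so that centring changes no value. CTSD was left out by a floor of log2 7, which kept 2. Centring on the hybridisation controls gave 6 (CTSB, HEXA and CTNS added) and a median of 0.49. A floor of log2 5 gave 5, by admitting CTSH and GPNMB. No floor gave 6 higher, with NAGLU, and 1 lower, FUCA2. The 2-fold rule gave 0 higher members and a rule of 0.32 on the log2 scale 8. The members' median stayed between 0.23 and 0.34 under the other settings. Positive members numbered 10 of 12 when probe sets were averaged and 31 of 42 with no floor; averaging also turned CTSS negative. Leaving out CTSS, whose neighbours had a median past 0.2, an alternative added after seeing the data like those for the positive count, left 17 of 19 positive. Differences changed sign for FUCA1 and LAPTM5 when centred on the hybridisation controls, for LAPTM5 with lowess and for CTSS with the mean of all probe sets. Values near the intensity of 4 carry no direction.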

Other observations

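The 7 X-linked genes of the further lysosomal lists that reached 64 were looked at after their values were seen. Of these, 5 were negative, beside 1984 of all 3564 compared genes. LAMP2, the lysosomal membrane glycoprotein mutated in Danon disease, read 124 in CD2-positive and 178 in CD2-negative cells, and its 3 probe sets above 64 gave log2 differences from -0.75 to -0.52. IDS, the iduronate sulfatase gene of Hunter syndrome, read 179 in CD2-positive and 259 in CD2-negative cells, with 6 probe sets from -0.80 to -0.17. GLA, the alpha-galactosidase gene of Fabry disease, read 789 in CD2-positive and 857 in CD2-negative cells (-0.12, or 0.06 when centred on the hybridisation controls). The 20 compared genes nearest to these 3 had medians of -0.51, -0.57 and -0.47, in that order. ATP6AP1, an accessory protein gene of the proton pump, read 156 in CD2-positive and 140 in CD2-negative cells (0.16) among neighbours with a median of -0.41. TFE3 (-0.27), ATP6AP2 (-0.06, or 0.12 when so centred) and AP1S2 (0.07) lay among neighbours with medians of 0.03, 0.06 and 0.01. None of the 43 lysosomal members lies on chromosome X.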
